A study of Mus musculus with 23 samples.

Results

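Doxorubicin and zoledronic acid (Dox+Zol) were given to 12 of the 23 mouse mammary tumours in the series, and the difference between those 12 tumours and the 11 that did not receive the drugs is described here across the 770 genes of an immune panel. The treated tumours were 6 that received Dox+Zol (DZ) and 6 that received Anakinra, a recombinant interleukin 1 receptor antagonist, together with Dox+Zol (ADZ). The untreated tumours were 6 placebo (P) and 5 Anakinra (A) tumours. Because Anakinra was crossed with Dox+Zol, every tumour contributed to the Dox+Zol difference, with Anakinra (yes or no) as a covariate.

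All tumours were grown from E0771 luc2 GFP cells, a bone-homing line of mouse mammary carcinoma carrying luciferase and GFP, in female C57BL/6J mice aged 6 to 8 weeks when the cells were injected into the mammary ducts. Per the study's methods, 8 mice were randomised to each arm 9 days after injection and culled on day 23. Anakinra (1 mg/kg) or placebo was injected daily, and 2 mg/kg doxorubicin was given each week, with 100 µg/kg zoledronic acid 24 h later. Doxorubicin and zoledronic acid always came together, so that their shares of any difference cannot be told apart here, and 1 tumour line limits the groups as a model of breast cancer. The 5 A and 6 DZ tumours each came from a different animal. Whether any of the P or ADZ tumours shared a mouse is not given in the sources used here, and p-values measure the spread between these tumours.

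Doxorubicin is an anthracycline that intercalates into DNA and traps topoisomerase II on broken strands, which activates the p53 response in cells that carry functional p53. Dying cells can release nucleic acids, ATP and other signals that myeloid cells sense, and the type I interferon genes are a common readout of that sensing. Zoledronic acid is a bisphosphonate that collects in bone mineral and blocks protein prenylation in osteoclasts, and macrophages that take it up can be affected in the same way. The panel holds genes for each of these routes, but no Top2a, the target of doxorubicin in dividing cells, and no Mki67, the usual proliferation marker.

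Levels are given as log2 normalised counts, so that a difference of 1 is a 2-fold change. Recovered totals were 882537 to 1677295 counts per tumour, and did not separate the groups (treated minus untreated -74568 counts, exact permutation p = 0.543, two-sided). The median level over the panel was 8.08 ± 0.25 (SD, n = 12) in treated and 8.09 ± 0.35 (SD, n = 11) in untreated tumours. Taken within Anakinra strata, rather than between these 2 means, the difference was 0.0081 (exact permutation p = 0.950). Between 85 and 182 genes per tumour lay at or below the background set by the negative controls, which was itself 0.12 higher in treated tumours (exact permutation p = 0.535), and 127 of the 770 genes did so in at least 12 of the 23 tumours. Placebo tumour 4 stood apart from all others, with a panel median of 9.02 against at most 8.20 in the other placebo tumours. Its summed B cell markers (Ms4a1, Cd79b and Pax5) reached 11.65 against 5.14 to 6.59 in the other 10 untreated tumours, and its summed follicle markers (Cxcl13, Cr2 and Ccl19) reached 10.93 against 5.42 to 6.94. Where a list's median or a gene's difference moved by over 1.5 times without it, both values are given. Values without it are not given for S100a8 or for genes named only for their values.

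The labelled tissue was checked against defining markers. Markers of epithelial tumour cells (Epcam, Cdh1 and Itgb4), endothelial cells (Pecam1, Cdh5, Tie1 and Tek), fibroblasts (Col1a1, Col3a1 and Pdgfrb), macrophages (Csf1r, Cd68, Msr1 and Mrc1) and T cells (Cd3d, Cd3e, Cd3g, Cd4 and Cd8a) were above background in at least 12 of the 23 tumours. Of the 3 B cell markers, 1 was. In each of the 11 cell types for which markers were listed, the range of summed marker levels in treated tumours overlapped that in untreated tumours. In bulk tumour RNA, fewer cells of a type and less RNA per cell cannot be told apart.

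No gene of the panel passed the threshold for a difference with Dox+Zol. Of 770 genes tested, 0 (0%) lay higher and 0 (0%) lower at an adjusted p under 0.05 (limma, Benjamini-Hochberg), and the smallest adjusted p was 0.997. At an unadjusted p under 0.05, 11 genes (1.43%) lay higher and 0 (0%) lower, fewer than a threshold of 0.05 lets through on average when nothing differs. An exact permutation of the Dox+Zol labels within Anakinra strata, over 426888 arrangements, gave 12 genes at an unadjusted p under 0.05, all higher, and 0 after adjustment. These were the same 11 genes and Ltbr (exact p = 0.0360), the lymphotoxin beta receptor. No gene had its 12 treated tumours entirely above or below its 11 untreated ones (0%).

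The differences were small and leaned upwards. Over the panel, 477 of 770 genes (61.9%) lay higher in treated tumours, with Anakinra as a covariate. The median difference was 0.038, with quartiles of -0.052 and 0.13. Without placebo tumour 4 the share was 74.2% and the median difference 0.089. Differences ran from -0.99 for Marco to 0.90 for Dmbt1, a mucosal scavenger receptor named here after its value was seen (95% interval -1.27 to 3.07). In size, 11 genes were over 0.5 and none over 1. The 95% interval of a gene had a median half-width of 0.41, and in 699 of 770 genes (90.8%) the whole interval lay within a 2-fold change in either direction. In the other 71 genes the interval reached a 2-fold change. The normalisation bore on which genes led. Recentring removed each tumour's own panel median, which ran from 7.68 (ADZ tumour 3) to 9.02 (placebo tumour 4). It took the median difference over the genes from 0.038 to 0.030. It left 6 genes higher and 1 lower at an unadjusted p under 0.05, and quantile normalisation gave 5 higher and 6 lower. Of the 11 genes above, 3 remained under the first setting and 2 under the second. The share of genes that lay higher was 53.4% after quantile normalisation. The medians of 5 of the 30 gene lists, those of the cell cycle, drug efflux, macrophage, CXCR3 and dendritic cell lists, turned from above to below 0 with it.

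**Figure D1:**
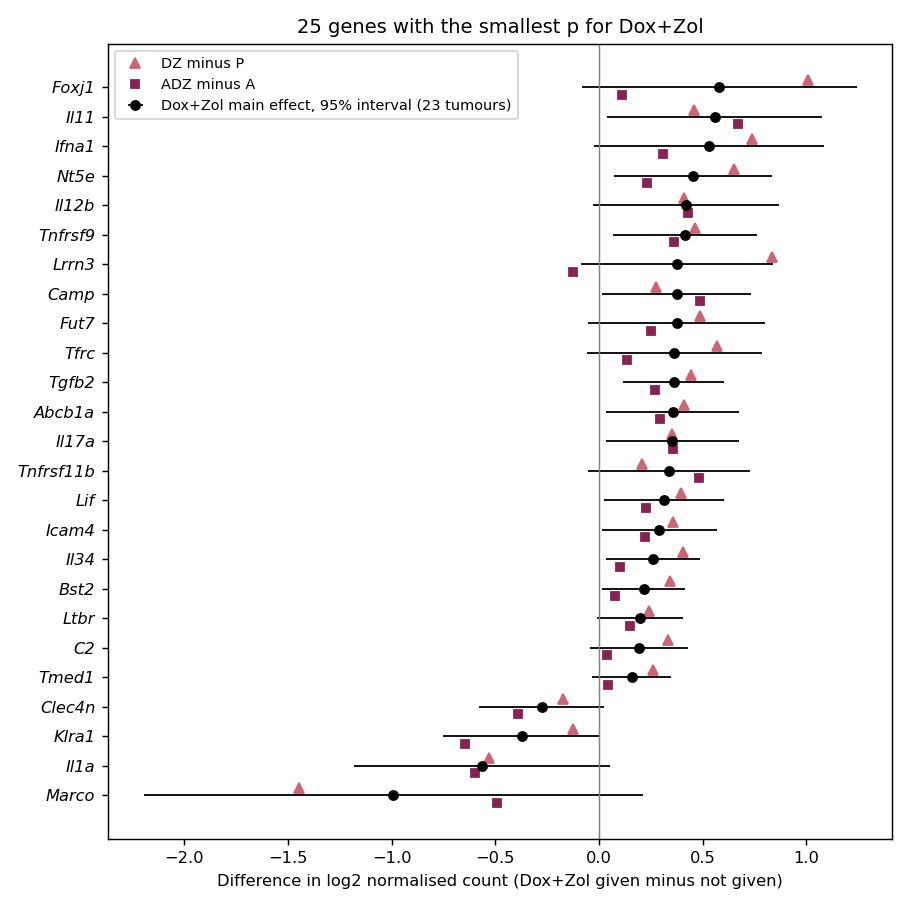
Difference in log2 normalised count (treated minus untreated, x axis) for the 25 genes with the smallest p, with black points and bars for the Dox+Zol main effect and its 95% interval over 23 tumours, triangles for DZ minus P and squares for ADZ minus A. Of these genes 21 lay to the right of 0 and 4 to the left, and none passed the adjusted threshold.

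The RNA of Cdkn1a and Trp53, genes of the p53 response, was measured precisely and differed little. Cdkn1a, the p21 inhibitor of cyclin-dependent kinases and a standard target of p53, was at 11.49, 11.62 and 11.91 (lowest, median and highest log2 level) in treated and at 11.40, 11.66 and 12.03 in untreated tumours. Its difference was -0.0067 (95% interval -0.18 to 0.16, limma unadjusted p = 0.935), or -0.037 without placebo tumour 4. Trp53, which encodes p53, differed by -0.015 (95% interval -0.16 to 0.12), or -0.0053 without that tumour. Both groups overlapped almost fully for either gene, and the intervals leave no room for a 1.5-fold difference in mean RNA of the bulk tumour. The panel does not measure p53 protein, and the time from the last dose to the cull is not given in the sources used here. Of the 18 measured genes in the p53, apoptosis and DNA damage list, 0 passed, 13 lay higher and 5 lower, with a median difference of 0.031 against 0.038 for the panel. The extremes of that list were Tnfrsf10b, the death receptor for TRAIL, at 0.13 and Bid, a BH3-only activator of apoptosis, at -0.065. The cell cycle list held only 6 measured genes, of which 0 passed, 4 lay higher and 2 lower (median 0.034, from -0.11 for Cyld to 0.11 for Ccnd3). The median was 0.076 without placebo tumour 4, and Ccnd3 differed by 0.22.

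Abcb1a encodes P-glycoprotein, the efflux pump for which doxorubicin is a substrate. Its log2 level was 6.50, 6.96 and 7.63 (lowest, median and highest) in treated and 6.26, 6.72 and 7.14 in untreated tumours. In 9 of 12 treated tumours it was above the untreated median, and in 4 above every untreated tumour. The difference was 0.36 (SE 0.15, 1.28-fold, 95% interval 0.035 to 0.68, limma unadjusted p = 0.0312, adjusted p = 0.997). It was 0.41 without Anakinra and 0.30 with it. Of the 5 measured genes in the list of drug efflux and lipid transport 0 passed, 3 lay higher and 2 lower, with a median of 0.0065. The lower ones were Apoe (-0.29), which carries cholesterol in lipoproteins, and Abca1 (-0.25), which exports it from the cell. Without placebo tumour 4 Abca1 differed by -0.070 and the median was 0.079.

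Tgfb2, which encodes transforming growth factor beta 2, had the smallest p of the panel. Its log2 level was 5.77, 6.10 and 6.88 (lowest, median and highest) in treated and 5.45, 5.78 and 6.18 in untreated tumours. In 11 of 12 treated tumours it was above the untreated median, and in 5 above every untreated tumour. The difference was 0.36 (SE 0.12, 1.28-fold, 95% interval 0.12 to 0.60, limma unadjusted p = 0.00538, exact p = 0.00309, adjusted p = 0.997). Without placebo tumour 4 it was 0.39. Of the 12 measured genes of the TGF-beta family 0 passed, 8 lay higher and 4 lower (median 0.030), with Runx3, a transcription factor downstream of TGF-beta signalling, at 0.37 (95% interval -0.16 to 0.89) and Tgfb3 at 0.17. The median was 0.083 without placebo tumour 4.

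Nt5e encodes CD73, the ectoenzyme that makes adenosine from AMP outside the cell. It was at 9.14, 9.65 and 10.42 in treated and at 8.42, 9.30 and 10.05 in untreated tumours, as lowest, median and highest log2 levels. The difference was 0.45 (SE 0.18, 95% interval 0.070 to 0.83, limma unadjusted p = 0.0224, adjusted p = 0.997), or 0.65 without Anakinra and 0.23 with it. In 9 of 12 treated tumours it was above the untreated median, and in 2 above every untreated tumour. Entpd1 (CD39), which supplies AMP to CD73, differed by -0.094, and Adora2a, the adenosine receptor of lymphocytes, by -0.088. Of the 4 measured genes in the adenosine and purine list 0 passed, 2 lay higher and 2 lower (median -0.039). Without placebo tumour 4 that median was 0.012, Entpd1 differed by -0.039 and Adora2a by 0.00075.

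**Figure D2:**
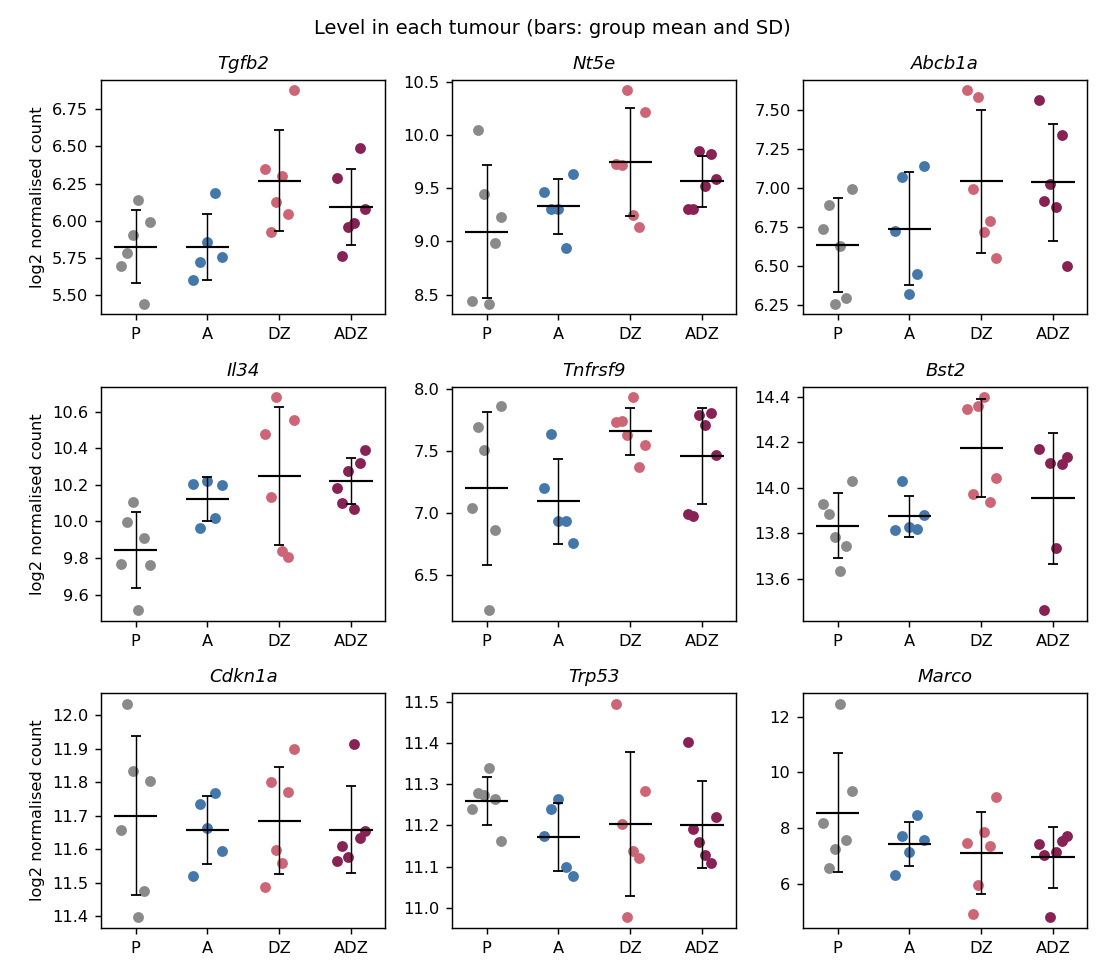
Log2 normalised count (y axis) of 9 genes in each tumour, by group (P, A, DZ and ADZ on the x axis), where points are single tumours, horizontal lines group means and bars the SD. Treated and untreated tumours overlap for every gene shown, and the highest Marco level, 12.45, is that of placebo tumour 4.

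Il34 encodes IL-34, which like CSF1 binds the CSF1 receptor and supports macrophages and osteoclasts. It was at 9.81, 10.23 and 10.68 (lowest, median and highest log2 level) in treated and at 9.51, 9.995 and 10.22 in untreated tumours, and 6 of 12 treated tumours were above every untreated one. The difference was 0.26 (SE 0.11, 95% interval 0.035 to 0.49, limma unadjusted p = 0.0254, adjusted p = 0.997), or 0.41 without Anakinra and 0.10 with it. Tnfrsf11b, which encodes osteoprotegerin, the decoy receptor for RANKL, differed by 0.34 (95% interval -0.054 to 0.73) but lay at background in 22 of 23 tumours. Itgb3, the beta 3 integrin of osteoclasts and platelets, differed by 0.20, or 0.11 without placebo tumour 4. Of the 13 measured genes of the CSF1 receptor and osteoclast axis 0 passed, 11 lay higher and 2 lower, with a median of 0.094 that became 0.20 without placebo tumour 4.

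Tnfrsf9 encodes 4-1BB, a costimulatory receptor of activated T and NK cells. Its log2 level was 6.98, 7.67 and 7.94 (lowest, median and highest) in treated and 6.22, 7.04 and 7.87 in untreated tumours. The difference was 0.42 (SE 0.17, 95% interval 0.067 to 0.76, limma unadjusted p = 0.0216, adjusted p = 0.997), and 0.31 without placebo tumour 4. Also among the 25 genes with the smallest p were Icam4, an adhesion molecule of red cells, with a difference of 0.29, Fut7, which makes selectin ligands, with 0.37, and Il12b, the shared subunit of IL-12 and IL-23, with 0.42. Fut7 was at background in 9 of 23 tumours, and the adjusted p of each was 0.997 (limma).

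Genes of the interleukin 6 family, cytokines with their receptors and relay, lay on the higher side. Of 11 measured genes 0 passed, 10 lay higher and 1 lower, with a median of 0.17. Lif, the leukaemia inhibitory factor, was at 5.72, 6.25 and 7.20 (lowest, median and highest log2 level) in treated and at 5.84, 6.01 and 6.27 in untreated tumours. Its difference was 0.31 (95% interval 0.025 to 0.60, limma unadjusted p = 0.0346, adjusted p = 0.997). The treated tumours spread more widely, since 5 were above every untreated tumour and 1 below. Il11 had a larger difference, 0.56, but all 23 tumours were at background for it. The same holds for Il17a (0.35), the neutrophil-mobilising cytokine of T cells, and Camp (0.38), the cathelicidin of neutrophil granules, so that 8 of the 11 genes at an unadjusted p under 0.05 were above background in any tumour. Osm, oncostatin M, was the member of the family that lay lower (-0.16).

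Interferon and sensing genes lay slightly on the higher side, as did the panel as a whole (61.9% higher, median 0.038). Bst2 (tetherin), which holds budding virus at the membrane and is induced by interferon, was at 13.46, 14.11 and 14.40 (lowest, median and highest log2 level) in treated and at 13.63, 13.83 and 14.03 in untreated tumours. In 8 of 12 treated tumours it exceeded every untreated tumour, and in 1 it was below all of them. The difference was 0.22 (SE 0.097, 1.16-fold, 95% interval 0.016 to 0.42, limma unadjusted p = 0.0358, adjusted p = 0.997). It was 0.34 without Anakinra and 0.079 with it. Of the 26 measured genes in the type I interferon response 0 passed, 21 lay higher and 5 lower, with a median of 0.065 and a range from -0.052 (Bst1) to 0.22 (Bst2). Without placebo tumour 4, 18 lay higher and the median was 0.068, below the 0.089 of the panel, in which 74.2% of genes then lay higher. The antiviral gene Rsad2 differed by 0.15 (95% interval -0.13 to 0.42) and Ifi35 by 0.12, or 0.065 without placebo tumour 4. Among the 22 measured genes of nucleic acid sensing 0 passed, 17 lay higher and 5 lower (median 0.076). Without placebo tumour 4, 20 lay higher and the median was 0.092, close to that of the panel. The interferon genes themselves were low, each at background in 7 tumours, with a difference of 0.53 for Ifna1 (95% interval -0.022 to 1.09) and of 0.25 for Ifnb1. Tmem173, which encodes STING, differed by 0.14.

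Antigen presentation by MHC class I lay on the same side. Of 16 measured genes 0 passed, 14 lay higher and 2 lower, with a median of 0.15. After quantile normalisation 10 lay higher and the median was 0.068. Tap2, a subunit of the peptide transporter, was at 10.10, 10.42 and 11.28 (lowest, median and highest log2 level) in treated and at 9.84, 10.21 and 10.75 in untreated tumours, a difference of 0.23 (95% interval -0.052 to 0.52). The classical class I gene H2-D1 differed by 0.18 and the non-classical H2-M3 by 0.15. H2-D1 turned to -0.0043 under quantile normalisation. Class I and class I-like genes are close in sequence, and how far their probes can tell them apart was not tested. Of the 9 measured genes of MHC class II 0 passed, 6 lay higher and 3 lower, with wide intervals such as -0.63 to 1.07 for H2-Ab1. The class II median was 0.060, or 0.17 without placebo tumour 4. It was -0.087 in DZ against P, which holds that tumour, and 0.22 in ADZ against A, a gap that was not tested. Among immune checkpoints 0 of 15 passed, 12 lay higher and 3 lower (median 0.12), with Cd244 at 0.21, Pvr at 0.19, Havcr2 (TIM-3) at 0.19 and Pdcd1lg2 (PD-L2) at -0.21.

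**Figure D3:**
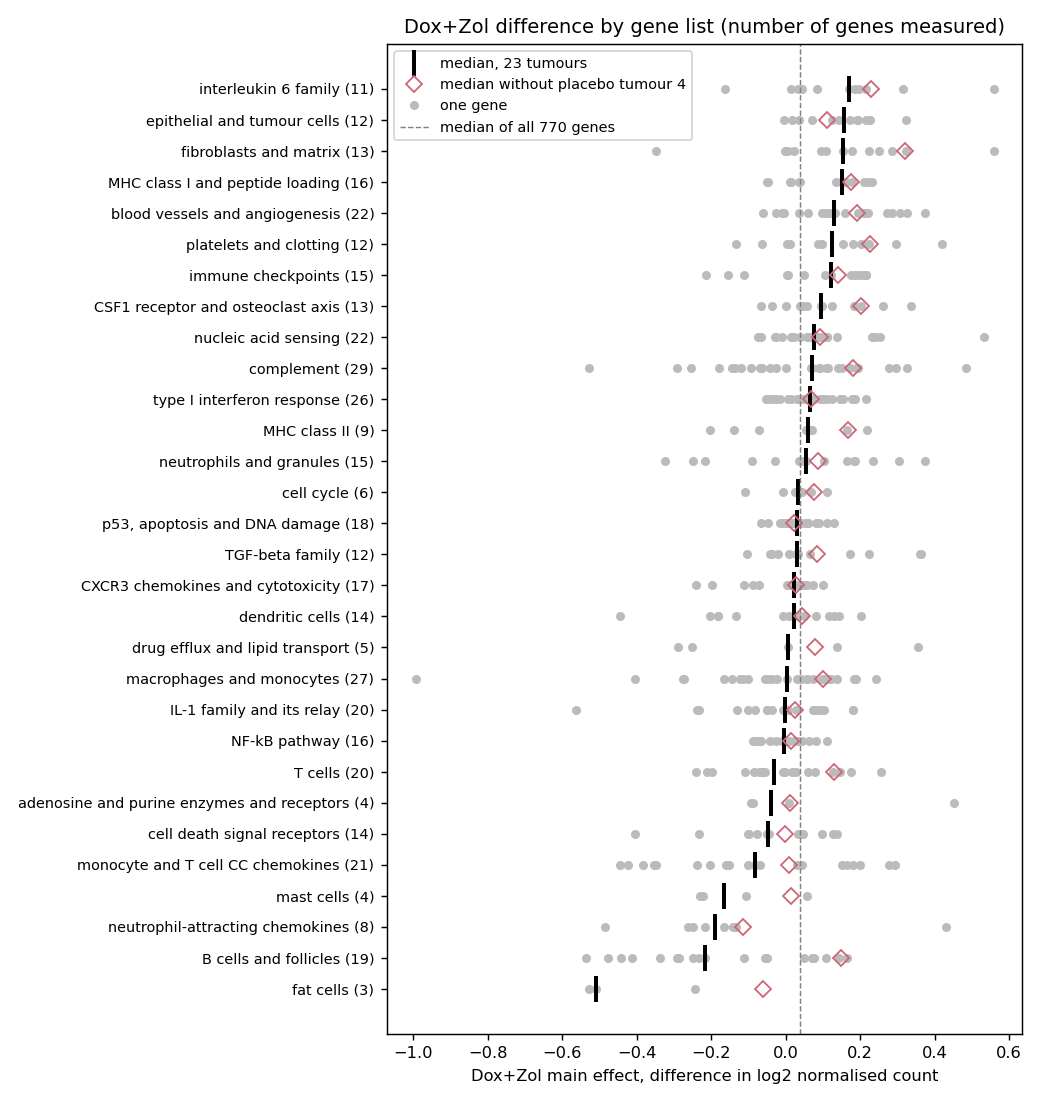
Dox+Zol main effect in log2 units (x axis) of each gene (grey points) in 30 gene lists (y axis, with the number of genes measured), where black bars are list medians over 23 tumours, diamonds the medians without placebo tumour 4 and the dashed line the median of all 770 genes, 0.038. The median of B cells and follicles was -0.22 with and 0.15 without placebo tumour 4, and 7 of 30 medians changed sign.

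Marco, a scavenger receptor of macrophages, was at 4.82, 7.40 and 9.13 (lowest, median and highest log2 level) in treated and at 6.32, 7.58 and 12.45 in untreated tumours. The difference was the largest of the panel in size, -0.99, but its interval ran from -2.20 to 0.21 (limma unadjusted p = 0.101, adjusted p = 0.997). Placebo tumour 4 held the value of 12.45, and the difference was -0.58 without it. Clec4n (Dectin-2), a receptor for fungal mannans, was at 9.92, 10.83 and 11.57 in treated and at 10.57, 10.96 and 11.46 in untreated tumours. Its difference was -0.28 (95% interval -0.58 to 0.026), and 5 of 12 treated tumours were below every untreated one. Clec7a (Dectin-1), the receptor for beta-glucans, differed by -0.41 (95% interval -0.94 to 0.13), and by -0.55 without placebo tumour 4. The macrophage and monocyte list as a whole did not lean, with 0 of 27 passed, 14 higher and 13 lower, and a median of 0.0027. Without placebo tumour 4 that median was 0.10, with 19 higher. Among cell death signal receptors 0 of 14 passed, 6 lay higher and 8 lower (median -0.048, or -0.0028 without placebo tumour 4), with Anxa1, a ligand that guides phagocytes to dying cells, at 0.13.

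Il1a, which encodes interleukin 1 alpha, an alarmin of the pathway that Anakinra blocks, was at 4.58, 5.95 and 7.25 (lowest, median and highest log2 level) in treated and at 5.43, 6.23 and 7.68 in untreated tumours. In 5 of 12 treated tumours it lay below every untreated tumour. The difference was -0.56 (SE 0.30, 95% interval -1.18 to 0.054, limma unadjusted p = 0.0718, adjusted p = 0.997), or -0.53 without Anakinra and -0.60 with it. The rest of the pathway was balanced. Of the 20 measured genes of the IL-1 family 0 passed, 10 lay higher and 10 lower (median -0.0031), and Il1rap, the accessory receptor chain, differed by 0.18, or 0.12 without placebo tumour 4, which took the list's median to 0.026. In the NF-kB pathway 0 of 16 passed, 8 lay higher and 8 lower (median -0.0038, or 0.014 without placebo tumour 4), within a range from -0.088 (Bcl10) to 0.11 (Ikbkg).

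Chemokines of neutrophil attraction leaned lower, with wide intervals, while the lean of CC chemokines depended on placebo tumour 4. Of the 8 measured genes of neutrophil attraction 0 passed, 1 lay higher and 7 lower, with a median of -0.19. Without placebo tumour 4, 3 lay higher and the median was -0.11. Cxcl3, a ligand of CXCR2, was at 5.29, 8.03 and 10.19 (lowest, median and highest log2 level) in treated and at 5.59, 8.66 and 9.57 in untreated tumours, a difference of -0.49 with an interval from -1.54 to 0.57. Cxcl15, the member that lay higher (0.43), was at background in 16 tumours. Neutrophil and granule genes gave 10 higher and 5 lower of 15, 0 passed, and a median of 0.055, or 0.086 without placebo tumour 4. Mpo (myeloperoxidase, 0.23) and Ltf (lactoferrin, 0.30) were at background in 21 and 16 tumours. S100a8, a granulocyte calprotectin subunit, differed by -0.32 (95% interval -1.08 to 0.43). Placebo tumour 4 held the highest S100a8 level, 13.37, and the difference without that tumour is not given. Among CC chemokines 0 of 21 passed, 8 lay higher and 13 lower (median -0.083). Without placebo tumour 4, 11 lay higher and the median was 0.0080. Ccl3, the macrophage inflammatory protein, differed by -0.35 (95% interval -0.82 to 0.12) and Ccl25 by 0.28.

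Lymphoid lists depended on placebo tumour 4. Of 19 measured genes of B cells and follicles 0 passed, 6 lay higher and 13 lower, with a median of -0.22. Without that tumour 17 lay higher and the median was 0.15. With all tumours the median was -0.39 in DZ against P, which holds placebo tumour 4, and 0.081 in ADZ against A. Cxcl13, the chemokine of B cell follicles, was at 3.04, 3.55 and 4.72 (lowest, median and highest log2 level) in treated and at 2.95, 3.59 and 9.66 in untreated tumours. Its difference of -0.54 became -0.0074 without the tumour that held 9.66. Of 20 T cell genes 0 passed, 8 lay higher and 12 lower (median -0.030), against 18 higher and a median of 0.13 without placebo tumour 4. With all tumours the T cell median was -0.13 in DZ against P and 0.13 in ADZ against A. The gaps between backgrounds were not tested for these lists. Cd8a, the coreceptor of cytotoxic T cells, was at 5.45, 6.12 and 7.25 in treated and at 4.97, 6.29 and 7.95 in untreated tumours (difference -0.21, 95% interval -0.77 to 0.35), and without placebo tumour 4, which held the 7.95, it differed by -0.056. Cd3g differed by -0.24, or -0.14 without that tumour, and Cd28, the costimulatory receptor, by 0.26. Ptprc (CD45), carried by all leucocytes, differed by 0.12 (95% interval -0.44 to 0.69), or 0.26 without placebo tumour 4. For CXCR3 chemokines and cytotoxicity 0 of 17 passed, 12 lay higher and 5 lower (median 0.022), from -0.24 for the NK cell receptor Ncr1 to 0.10 for Cxcr3. Ncr1 differed by -0.13 without placebo tumour 4.

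Dendritic and mast cell lists held members on both sides of 0. Of 14 dendritic cell genes 0 passed, 8 lay higher and 6 lower (median 0.021, or 0.045 without placebo tumour 4), with the chemokines Ccl17 at -0.45 and Ccl22 at -0.20. Of 4 mast cell genes 0 passed, 1 lay higher and 3 lower (median -0.16, or 0.014 without placebo tumour 4), and the chymase Cma1 differed by -0.23 (95% interval -1.05 to 0.59), or 0.043 without that tumour. The fat cell genes Cfd (-0.53), Cd36 (-0.51) and Pparg (-0.24) all lay lower, and 0 of 3 passed. Cfd, adipsin, ran from 4.73 to 13.08 in treated and from 3.78 to 14.10 in untreated tumours. The median of the 3 genes went from -0.51 to -0.060 without placebo tumour 4. Without that tumour Cfd differed by -0.060, Cd36 by -0.27 and Pparg by -0.056.

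Stromal and epithelial lists lay on the higher side in the pooled comparison, with larger medians in DZ against P than in ADZ against A. These were 0.28 and 0.052 for fibroblasts and matrix, and 0.20 and 0.0054 for platelets and clotting. For epithelial and tumour cells they were 0.19 and 0.031, against 0.036 and 0.035 for the panel. These gaps were not tested. Of 22 genes of blood vessels and angiogenesis 0 passed, 18 lay higher and 4 lower, with a median of 0.13, which was 0.26 in DZ against P and 0.0081 in ADZ against A, a gap that was not tested. Tie1, an endothelial receptor kinase, was at 5.82, 7.49 and 7.94 (lowest, median and highest log2 level) in treated and at 6.18, 7.07 and 8.04 in untreated tumours, a difference of 0.37 (95% interval -0.17 to 0.91). Col4a1, a collagen of basement membranes, differed by 0.29, and Vegfc, a growth factor of lymphatic vessels, by 0.22. Fibroblast and matrix genes gave 11 higher and 2 lower of 13, 0 passed, and a median of 0.15, or 0.32 without placebo tumour 4, and Pdgfc was the lowest (-0.35, or -0.17 without it). Platelet and clotting genes gave 10 higher and 2 lower of 12, 0 passed, and a median of 0.13, or 0.23 without placebo tumour 4, with Serpinb2, an inhibitor of plasminogen activators, at 0.42 (95% interval -0.47 to 1.31). Of 12 epithelial and tumour cell genes 0 passed, 11 lay higher and 1 lower. Their median was 0.16, or 0.11 without placebo tumour 4, against 0.089 for the panel without it. Cd9 differed by 0.23, or 0.10 without placebo tumour 4, and Erbb2, the HER2 receptor, by 0.22. Complement genes gave 17 higher and 12 lower of 29, against 61.9% higher in the panel, and 0 passed. Without placebo tumour 4, 23 of the 29 lay higher, against 74.2% in the panel. Their median was 0.071, or 0.18 without placebo tumour 4, and 0.016 with 16 higher after quantile normalisation. At least 12 of the 23 tumours were at background for 11 of the genes. C2, a protease of the classical pathway, differed by 0.19 and was above the untreated median in 11 of 12 treated tumours. Its difference was 0.33 without Anakinra and 0.038 with it. Summed marker levels overlapped between treated and untreated tumours. Endothelial markers were at 9.54, 10.44 and 11.02 in treated and 9.55, 10.54 and 10.65 in untreated tumours, fibroblast markers at 12.53, 13.79 and 14.77 against 12.88, 13.23 and 15.61, and epithelial markers at 8.19, 8.72 and 9.20 against 7.84, 8.52 and 9.32. Their part in the gene differences was not tested.

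The Dox+Zol difference was then set out on each Anakinra background. Without Anakinra (DZ minus P), 0 genes passed the adjusted threshold (smallest adjusted p 0.9997, limma), and 12 (1.56%) lay higher and 0 (0%) lower at an unadjusted p under 0.05. With Anakinra (ADZ minus A), 0 passed (smallest adjusted p 0.9999), and 0 (0%) lay higher and 1 (0.13%) lower. That gene was Klra1, an NK cell receptor of the Ly49 family, at background in all 23 tumours. The median difference over the panel was 0.036 in the first comparison and 0.035 in the second. These comparisons share no tumours. Across the 770 genes, which are not independent replicates, the differences correlated weakly (Pearson's r = 0.16, Spearman's rho = 0.13), and 431 genes (56.0%) had the same sign, 280 of them higher in both and 151 lower in both. Without placebo tumour 4, r was 0.20 and the share 61.4%.

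**Figure D4:**
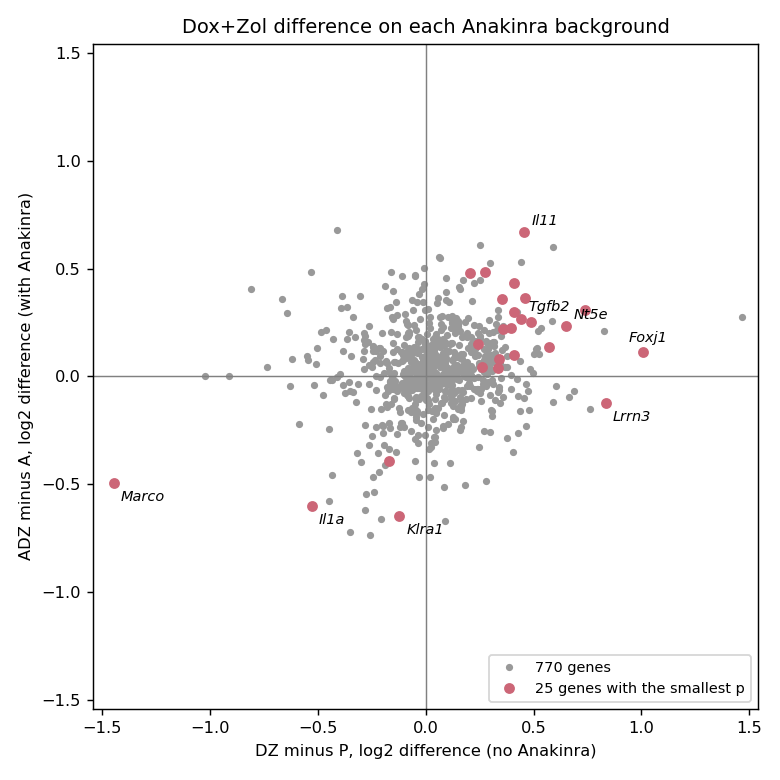
Dox+Zol difference in log2 units without Anakinra (DZ minus P, x axis) and with Anakinra (ADZ minus A, y axis) for 770 genes, where each point is a gene and red points are the 25 with the smallest p in the pooled comparison. The cloud shows little relation between the axes (r = 0.16), and Lrrn3 lies to the right but below 0.

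The test of the difference between the backgrounds found 0 genes past the adjusted threshold (smallest adjusted p 0.996, limma interaction term), and 0 (0%) higher and 2 (0.26%) lower at an unadjusted p under 0.05. Lrrn3, a leucine-rich repeat membrane protein, was 5.60 ± 0.54 (SD, n = 6) in P, 6.01 ± 0.43 (SD, n = 5) in A, 6.44 ± 0.70 (SD, n = 6) with Dox+Zol alone and 5.89 ± 0.16 (SD, n = 6) with the combination. Its difference was 0.84 without and -0.12 with Anakinra (interaction -0.96, limma unadjusted p = 0.0287, adjusted p = 0.996). The other gene, Il18rap, the accessory chain of the IL-18 receptor, was picked after its values were seen. It was at 8.58 ± 0.25 in placebo, 8.76 ± 0.19 in Anakinra, 8.89 ± 0.18 in DZ and 8.58 ± 0.23 in ADZ tumours (interaction -0.49, limma unadjusted p = 0.0224, adjusted p = 0.996). Itgb4, an integrin of basal epithelium, came next among the genes described, with 0.45 without and -0.099 with Anakinra. For these genes the pooled Dox+Zol difference averages values that lay apart. For Tgfb2 (0.44 and 0.27), Tnfrsf9 (0.46 and 0.36), Abcb1a (0.41 and 0.30) and Il1a (-0.53 and -0.60) the values on both backgrounds lay on the same side. Choosing genes by a small pooled p favours such agreement, which 24 of the 25 genes with the smallest p had.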

How the data were processed

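RNA (150 ng) of 23 primary tumours was hybridised to the nCounter panCancer mouse immune panel. The authors ran nSolver (version 4.0) and its Advanced Analysis module (version 2.0) on the counts and deposited log2 values, 1 column per tumour, in which each tumour's counts had been multiplied by a single factor (0.759 to 1.57), set so that the 20 reference genes average 11.4. Whether background was subtracted is not given in the sources used here. Dividing out the factor gave 882537 to 1677295 gene counts per tumour, whole within 0.05 for 100% of the values, with 6 log2 values of exactly 0 kept as they were. Background was the mean of the 8 negative controls plus 2 SD, times the factor.

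All 770 genes were tested on the deposited log2 values in limma 3.58.1 under R 4.3.3 with moderated two-sided tests and Dox+Zol and Anakinra as additive terms. P-values were adjusted by Benjamini-Hochberg over the 770 genes, at a threshold of 0.05. DZ minus P, ADZ minus A and the interaction came from a fit of 4 group means. Values per tumour were tested by exact permutation within Anakinra strata. Gene lists were described by counts and medians, with no set test. The labels give no batch. The scripts were tested on simulated data.

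Genes named were the 25 with the smallest p (none passed), the 3 with the smallest p in each of 30 lists, Ptprc, Trp53, Cdkn1a and Abcb1a, and cell type markers, of which 1 gene is not reported here. The comparison, the lists and the tests were chosen with earlier results of these data known. A few members at the extremes of a list (Bid, Apoe, Bst1, Osm and Pdcd1lg2) were named for their values. Of the 770 symbols 754 matched the reference annotation, 8 matched by synonym and 8 did not. No genome build applies to these values.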

Additional observations from a re-analysis of the deposited data

Results flagged for a closer look

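In groups of 5 or 6 tumours, 23 of 408 checks found the highest or lowest tumour far from the other tumours of its group (Dixon's test, which chance alone passes in about 1 in 20 groups), and 13 of the 23 were placebo tumour 4. Its panel median was 9.02 against at most 8.20 in the other placebo tumours. It held the highest placebo log2 level of the follicle genes Cxcl13 (9.66) and Cxcr5 (7.45), with the next placebo tumour at 4.11 and 4.16. It was also the highest placebo tumour for H2-DMb2 (10.2), Irf8 (10.5), Cd8a (7.95), Ncr1 (6.95) and the mast cell chymase Cma1 (10.8), and for the lipid handling genes Cd36 (12.1), Abca1 (10.6) and Pparg (7.83). Il6ra was highest there too (10.6), while Ifi35 was lowest (11.5).

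Among treated tumours, DZ tumour 4 had 182 genes at background against at most 137 in the other DZ tumours. Il12b was lowest in DZ tumour 2 (4.995) and Il1rl1 highest in DZ tumour 6 (8.40). In ADZ tumours, Marco was lowest in tumour 3 (4.82 against 7.05 for the next), Erbb2 lowest in tumour 2 (8.82) and Camp highest in tumour 1 (4.12, below background). ADZ tumour 4 was lowest for Ccl26 (0.82, below background) and highest for Tnfaip3 (9.55) and Cdkn1a (11.9). Among Anakinra tumours, Lif was highest in tumour 5 (6.27). The causes of these values were not tested.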

How the results depend on the processing

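Under every alternative run, including leaving out each tumour in turn, 0 genes passed the adjusted threshold in the pooled comparison, on either Anakinra background or for the interaction. Of the genes at an unadjusted p under 0.05 in the pooled comparison (11 higher, 0 lower), a filter at a mean of 50 normalised counts, which tested 577 genes, left 7 higher. Recentring on the panel median gave 6 higher and 1 lower, and quantile normalisation 5 higher and 6 lower. The lower count was 1 without the Anakinra covariate and 1 as the mean of the simple effects. For ADZ minus A, the count of 1 was 0 with values raised to background, 2 when recentred and 6 after quantile normalisation, and for the interaction the count of 2 was 6 after quantile normalisation. The cause was not tested. Leaving out single tumours moved the higher count between 5 (without DZ tumour 1) and 20 (without placebo tumour 4), the lower count between 0 and 4 (without ADZ tumour 4), DZ minus P from 12 to between 7 (without DZ tumour 1 or 3) and 27 (without placebo tumour 4), ADZ minus A to between 0 and 9 (without ADZ tumour 4), and the interaction to between 1 and 5 (without P tumour 5, A tumour 3 or ADZ tumour 3). The share of genes higher ran from 52.9% (without DZ tumour 1) to 74.2% (without placebo tumour 4). The difference in panel median ran from -0.027 to 0.092, and that in genes at background from -3.48 to 4.53.

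Replicate numbers were not taken as pairs. Like-numbered deviations correlated over 0.1 in 1 of 6 pairs of DZ and P (r from -0.63 to 0.76). They did so in 2 of 5 of ADZ and A (r from -0.55 to 0.50). Such a count cannot exclude a pairing. With the replicate block, 8 genes lay higher and 2 lower at an unadjusted p under 0.05, 2 did for ADZ minus A, and no adjusted call changed. Single genes changed sign with values raised to background, which by itself was 0.12 higher in treated tumours. These were Klra1 and Ccl26 (each 0.12), Cxcr1 (0.12), Ms4a2 (0.023) and C8g (0.078). H2-D1 was -0.0043 after quantile normalisation. Leaving out single tumours turned the sign of Adora2a (-0.15 to 0.00075), Entpd1 (-0.17 to 0.010), Cxcr5 (-0.39 to 0.019), Cma1 (-0.39 to 0.043), H2-DMb2 (-0.29 to 0.14), Trp53 (-0.042 to 0.0093) and Cdkn1a (-0.037 to 0.027). At this number of tumours, the 71 genes whose interval reached a 2-fold change, and the 127 at background in at least 12 of the 23 tumours, allow no firm statement.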
